A study of Mus musculus with 12 samples.

Results

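Terminal complement comprises the plasma proteins that assemble into the membrane attack complex, and the 6 genes described here encode most of them. They are Hc (which encodes complement C5 in the mouse), C6, C8a, C8b, C8g and C9, 6 of the 36047 genes with at least 1 listed transcript. The genes were chosen by symbol, from a family proposed with earlier results of these same livers known, namely lower C6 and C9 mRNA under sulfur amino acid restriction. The comparisons of restricted with control mice are therefore descriptions for these 6 genes. No p-value is given for them, and the counts of calls are descriptions too. All 6 passed the filter on low counts, with between 1605 and 15502 estimated counts per gene and mouse, so none was lost to it.

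Complement is a cascade of plasma proteins made largely by hepatocytes. Its classical, lectin and alternative arms converge on C3 and then on the cleavage of C5, whose fragment C5b binds C6 and C7. C8, a heterotrimer of the products of C8a, C8b and C8g, joins this complex, and copies of C9 polymerise around it into a pore in the target membrane. Vitronectin and clusterin keep unfinished complexes in plasma from inserting into membranes, and CD59 blocks C9 on host cells.

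Livers came from adult C57Bl/6J males, 5 to 6 months old, fed the diets for 7 days and fasted for 4 h before death. The paper reports that the mice were also labelled with deuterium, by an injection of heavy water and then in their drinking water. The mice were housed singly, and all 4 diets were free of cysteine and isonitrogenous. RF.Ctrl and HF.Ctrl are the control diets with 18% and 60% of energy from fat. In RF.SAAR and HF.SAAR, methionine was reduced at the same fat levels and glutamic acid was added to balance it. Each group held 3 mice, so 12 livers were sequenced. The regular-fat and high-fat diets came from different suppliers, and fat content and supplier cannot be told apart in these groups. Polyadenylated RNA from whole liver was read, so fewer cells of a type and less RNA per cell cannot be told apart.

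Total estimated counts lay between 16203094 and 21230092 per mouse. All 9 hepatocyte marker genes were tested and none was called in either comparison of SAAR with Ctrl, with median log2 fold changes of -0.23 (RF) and -0.18 (HF). Their summed level was 87832 to 102878 CPM in RF.Ctrl and 78963 to 86444 CPM in RF.SAAR, without overlap, and 82668 to 95770 against 79352 to 90424 CPM in HF.Ctrl and HF.SAAR. CPM are counts scaled to library size with TMM factors. The 11 pancreatic acinar marker genes, none at 0 in every mouse, summed to between 16.5 and 46.9 CPM in RF.SAAR, 33.7 and 1029 in RF.Ctrl, 31.3 and 4706 in HF.Ctrl, and 34.5 and 13362 in HF.SAAR. The 3 mice highest in them were HF.SAAR mouse 3, HF.Ctrl mouse 2 and HF.SAAR mouse 2, and results are also given without these mice where that changes them. Summed levels of 5 cholangiocyte markers were 42.9 to 62.0 CPM in RF.Ctrl against 36.0 to 42.9 in RF.SAAR, and 42.9 to 58.0 in HF.Ctrl against 35.2 to 38.5 in HF.SAAR. Their part in the results below was not tested. Between 5.61 and 7.07% of counts were mitochondrial.

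C6 and C9, whose mRNAs differed most between the diets, lie on the same chromosome, and the bases before their starts are printed to show what the pair has in common and what it does not. The 60-base stretches of Hc, C8a and C8b are printed around the motif that these 3 genes hold. Sequences are from RefSeq on GRCm38.p6, run 5′ to 3′ along the gene, and stop before the more upstream of the RefSeq and GENCODE starts. Capitals mark TTGCNNAA (C/EBP) in C9 and GTTAAT (a part of the HNF1 site), on either strand, in the 3 others.
C9: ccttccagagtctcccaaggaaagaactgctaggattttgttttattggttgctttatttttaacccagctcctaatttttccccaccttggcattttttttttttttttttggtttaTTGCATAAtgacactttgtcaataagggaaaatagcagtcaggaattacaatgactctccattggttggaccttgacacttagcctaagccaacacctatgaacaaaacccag
C6: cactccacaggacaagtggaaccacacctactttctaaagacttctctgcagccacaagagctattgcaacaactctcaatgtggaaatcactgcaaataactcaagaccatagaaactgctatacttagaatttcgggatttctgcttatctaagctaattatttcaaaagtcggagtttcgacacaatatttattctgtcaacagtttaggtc
C8a: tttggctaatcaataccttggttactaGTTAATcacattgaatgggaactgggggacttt
C8b: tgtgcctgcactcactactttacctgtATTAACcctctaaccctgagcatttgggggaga
Hc: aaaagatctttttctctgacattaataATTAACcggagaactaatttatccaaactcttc

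The C9 stretch is chr15:6445096-6445326 on the plus strand, and that of C6 is chr15:4726960-4727174 on the plus strand. C8a is shown at chr4:104876473-104876532 on the minus strand, C8b at chr4:104766084-104766143 on the plus strand, and Hc at chr2:35061454-35061513 on the minus strand. In the 250 bases before the RefSeq start, on both strands, GTTAAT occurred in 3 of the 6 genes (Hc, C8a and C8b) and in 6.43% of 32851 promoter windows of the same length. TTGCNNAA occurred in C9 alone of the 6, and in 9.56% of all windows. TATAAA, the letters of the core promoter box of that name, occurred in Hc alone, 239 to 234 bases before the start, and in 12.4% of all windows. TTCNNNGAA (STAT) occurred in C8a alone, against 7.02% of all windows. TGATGNAA (C/EBP-ATF composite) and CAAAGTCCA (HNF4) occurred in none of the 6, against 3.45 and 0.384% of all windows. C6 and C9 thus held none of the 6 motifs in common, and C6 and C8g held none at all. The 6 windows were 31.2% (Hc), 40.0% (C6 and C8a), 38.8% (C9), 50.4% (C8b) and 55.6% (C8g) G and C, where the median of all windows was 52.4%. A match of letters is a description of the sequence and not a binding site.

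All 6 genes were lower in mean CPM in SAAR than in Ctrl mice at both fat levels, and C6 and C9 differed most. Under SAAR, C9 stood at 0.488 and C6 at 0.471 of the Ctrl level in the regular-fat mice, and C9 at 0.330 and C6 at 0.294 of it in the high-fat mice. Hc, C8a, C8b and C8g stood at between 0.545 and 0.780 of the Ctrl level in the same comparisons. Of all counts of a mouse, the 6 genes together took 0.276 to 0.308% in both Ctrl groups, against 0.189 to 0.238% in RF.SAAR and 0.164 to 0.194% in HF.SAAR.

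**Figure D1:**
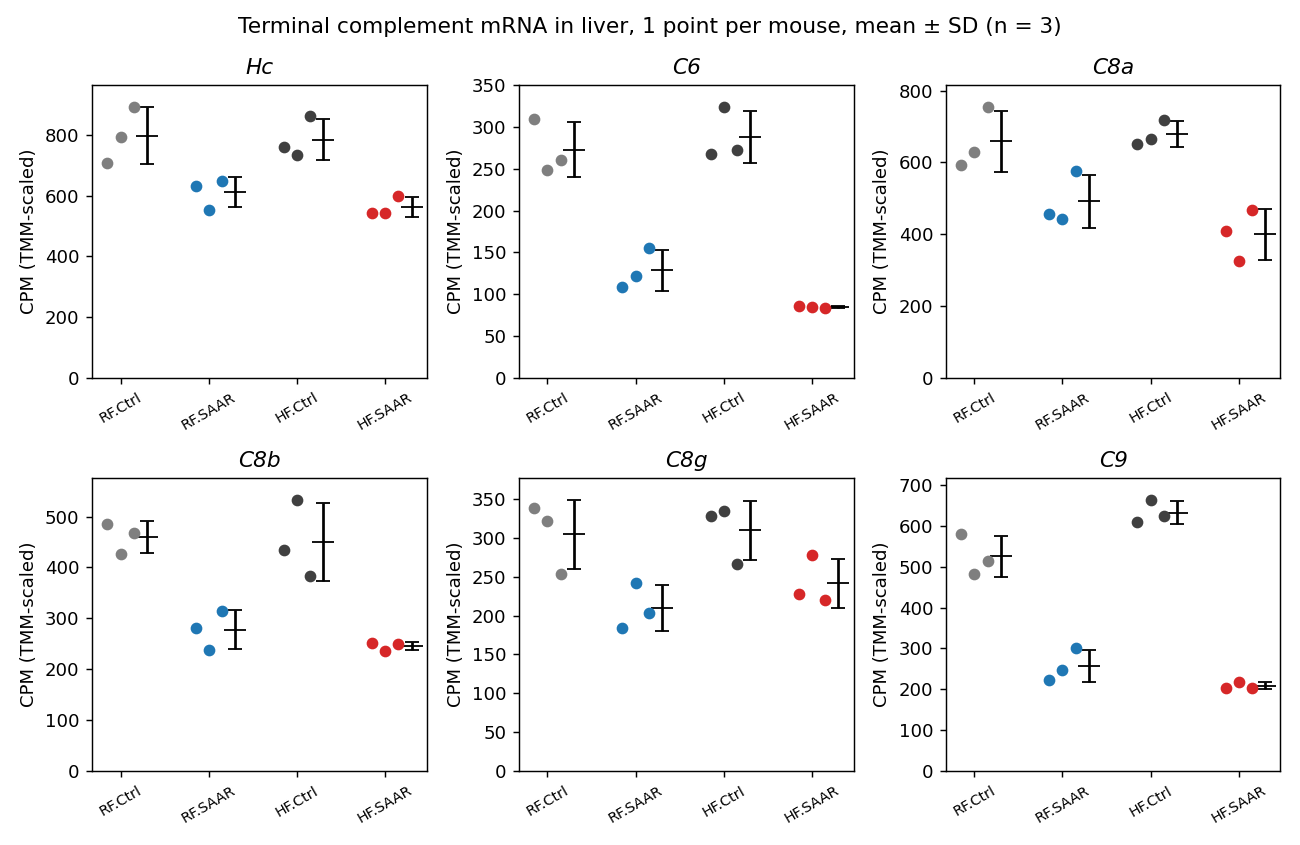
TMM-scaled CPM (vertical axis, from 0) of each gene in the 4 diet groups, with 1 point per mouse and the mean ± SD of 3 mice beside the points. In C6 and C9 the SAAR points lie far under the Ctrl points at both fat levels, and in C8g one HF.SAAR mouse at 278 CPM lies above an HF.Ctrl mouse at 266 CPM.

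Hc encodes C5, the precursor of the fragment that starts the terminal complex. It lies on chromosome 2 (34983331 to 35061438, minus strand, GRCm38), where an annotated antisense gene shares 19474 bases with it. The RF.Ctrl mice had 709, 793 and 894 CPM of Hc, and the RF.SAAR mice 633, 554 and 648. The HF.Ctrl mice had 759.6, 734 and 862 CPM, and the HF.SAAR mice 545, 542 and 601. Every SAAR mouse was below every Ctrl mouse of the same fat level, with log2 fold changes of -0.38 (SE 0.11) in RF and -0.48 (SE 0.11) in HF. With library size as the only scaling they were -0.22 and -0.32, and in TPM, described further on, the SAAR and Ctrl mice overlapped at both fat levels. Of the 6 genes Hc had the smallest difference in RF and the second smallest in HF.

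C6 binds C5b and is the first component added to the complex. It lies on chromosome 15 (4727175 to 4814967, plus strand). Its level was 310.1, 249 and 261 CPM in the RF.Ctrl mice and 108, 122 and 156 CPM in the RF.SAAR mice. In the high-fat mice it was 268, 325 and 273 CPM under Ctrl and 86.1, 84.8 and 83.9 CPM under SAAR. The HF.SAAR mice thus lay close together and below every mouse of the other groups. The log2 fold change was -1.09 (SE 0.14) in RF and -1.76 (SE 0.14) in HF.

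The 3 chains of C8 come from 3 genes. C8a and C8b encode the α and β chains, which share the pore-forming domain of C6 and C9, and C8g encodes the γ chain, a lipocalin. C8a and C8b are neighbours on chromosome 4, C8b at 104766317 to 104804548 on the plus strand and C8a at 104815679 to 104876398 on the minus strand. Their 3′ ends face each other across 11.1 kb with no protein-coding gene between. C8g lies on chromosome 2 (25498651 to 25501719, minus strand).

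C8a stood at 592, 629 and 755 CPM in RF.Ctrl, and at 455, 442 and 576 CPM in RF.SAAR. It stood at 651, 666 and 719 CPM in HF.Ctrl, and at 409.7, 325 and 466 CPM in HF.SAAR. The groups did not overlap at either fat level, although in RF the highest SAAR mouse (576 CPM) lay just under the lowest Ctrl mouse (592 CPM). The log2 fold change was -0.42 (SE 0.14) in RF and -0.76 (SE 0.14) in HF. With library size as the only scaling the RF value was -0.26.

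C8b was at 486, 426 and 468 CPM in RF.Ctrl and at 281, 238 and 314 CPM in RF.SAAR. In the high-fat mice it was at 434, 533 and 384 CPM under Ctrl and at 251, 236 and 249 CPM under SAAR. All SAAR mice lay under all Ctrl mice, and the log2 fold changes of -0.73 (SE 0.13) and -0.87 (SE 0.13) were the largest after those of C6 and C9.

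C8g had 338, 321 and 254 CPM under RF.Ctrl and 184, 242 and 203 CPM in RF.SAAR, again without overlap. In the high-fat mice the values were 328, 335 and 266 CPM under Ctrl and 228, 278 and 219 CPM under SAAR, and these groups overlapped. The log2 fold change was -0.54 (SE 0.15) in RF and -0.36 (SE 0.15) in HF, and the HF value was -0.19 with library size as the only scaling. C8g was the only 1 of the 6 whose difference was smaller in HF than in RF. It shares 970 bases with Fbxw5 on the opposite strand, which was at 22.0 to 30.5 CPM, and reads from the shared bases cannot be told apart without strand, which the sources used here do not give.

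C9 forms the ring of the pore. It lies on chromosome 15 (6445327 to 6498751, plus strand), 1630.4 kb from C6. The RF.Ctrl mice had 580.0, 483 and 513 CPM and the RF.SAAR mice 222, 248 and 299.8 CPM. The HF.Ctrl mice had 609, 664 and 625 CPM and the HF.SAAR mice 204, 218 and 204 CPM. The log2 fold change was -1.03 (SE 0.11) in RF and -1.60 (SE 0.12) in HF.

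A gene is called at an adjusted p under 0.05 in edgeR's quasi-likelihood F-test across all 14670 genes. In RF.SAAR vs. RF.Ctrl, 3 of the 6 were called lower (C6, C8b and C9), where 0.886% of all genes were called lower and 1.49% in either direction. At high fat, 5 were called lower (all but C8g), where 0.961% of all genes were called lower and 1.97% in either direction. C6, C8b and C9 were called lower in both, as were 0.477% of all genes. Every one of the 6 lay without overlap below RF.Ctrl, as did 9.7% of all genes, and 5 lay so below HF.Ctrl, as did 8.97%. The median log2 fold change of the 6 was -0.63 in RF and -0.82 in HF, beside -0.0013 and -0.0014 over all genes. As these contrasts guided the choice of the genes, nothing is read from the counts. DESeq2 called 5 of the 6 lower in RF (all but C8a), where 2.7% of the genes it could adjust were called lower, and 5 in HF (all but C8g), where 2.21% were. Without the 3 mice highest in acinar genes, which left 1 HF.SAAR mouse, edgeR called 2 of the 6 in HF, C6 (-1.67) and C9 (-1.62). Hc (-0.59), C8a (-0.76) and C8b (-0.72) were no longer called there, and of all 15560 genes tested in that fit 16 were called higher and 14 lower, against 148 and 141 of 14670 with all mice.

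**Figure D2:**
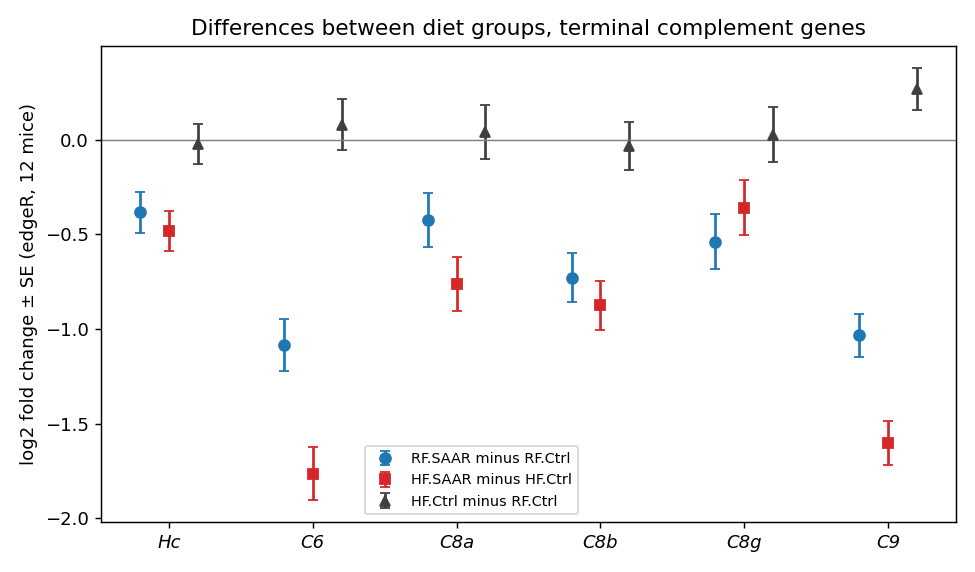
Log2 fold change with its SE (vertical axis) of each gene in RF.SAAR minus RF.Ctrl (circles), HF.SAAR minus HF.Ctrl (squares) and HF.Ctrl minus RF.Ctrl (triangles). All circles and squares lie below 0, C6 and C9 reach -1.76 and -1.60 in HF, and the triangles lie between -0.03 and 0.27.

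Whether fat changed the response was examined by the interaction, the HF difference between SAAR and Ctrl minus the RF difference, on the same mice. The 6 genes were chosen with earlier results of these livers known, and the p-values below make no allowance for that choice. None of the 6 was called by edgeR, as against 0.00682% of all genes (1 gene). DESeq2 called 0 of the 6 too, and 12 genes above 0 and 4 below over all genes. An unadjusted p under 0.05 was found for C6, with an interaction of -0.68 on the log2 scale (SE 0.19, unadjusted p = 0.00349, adjusted p = 0.999), and C9, with -0.57 (SE 0.16, unadjusted p = 0.00335, adjusted p = 0.999), 2 of the 6, as for 3.15% of all genes (462 genes). The other 4 had interactions of -0.10 (Hc), -0.34 (C8a), -0.15 (C8b) and 0.18 (C8g), each within 2 SE of 0. A larger difference of C6 and C9 under high fat was therefore not shown at the level of all genes.

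Under the control diets the 6 genes were also compared between fat levels. In HF.Ctrl vs. RF.Ctrl, edgeR called 0 of the 6 and 0% of all 14670 genes (527 genes, 3.59%, had an unadjusted p under 0.05), and DESeq2 called 0 of the 6, with 5 genes higher and 26 lower over all genes. C9 was the 1 gene whose mice did not overlap, with 609 to 664 CPM in HF.Ctrl and 483 to 580.0 CPM in RF.Ctrl. Every HF.Ctrl mouse lay above every RF.Ctrl mouse in 4.09% of all genes. The difference on the log2 scale was 0.27 (SE 0.11, unadjusted p = 0.0326, adjusted p = 1.0). The other 5 lay between -0.03 and 0.08 and overlapped.

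Between the restricted groups (HF.SAAR vs. RF.SAAR), edgeR called 0 of the 6 and 0.0477% of all genes (7 genes), and 2 of the 6 had an unadjusted p under 0.05, as had 5.59% of all genes (820 genes). C6 was lower in HF.SAAR, at 83.9 to 86.1 CPM against 108 to 156 CPM, with -0.60 on the log2 scale (SE 0.14, adjusted p = 0.325). DESeq2 called this difference, with an adjusted p of 0.009 and -0.60, and over the alternatives its adjusted p ran from 0.009 to 1.0. Over all genes DESeq2 called 54 higher and 31 lower here, the latter 0.209% of those it could adjust. C9 was also without overlap, at 204 to 218 CPM against 222 to 299.8 CPM, with -0.30 on the log2 scale (SE 0.11, adjusted p = 0.805). Every HF.SAAR mouse lay below every RF.SAAR mouse in 4.68% of all genes. The mice of Hc, C8a, C8b and C8g overlapped, with log2 fold changes of -0.12, -0.29, -0.18 and 0.21.

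Levels were compared between the genes as TPM, which correct for transcript length and sum to one total in each mouse. C8g was highest and C9 second in 5 of the 6 Ctrl mice, and in HF.Ctrl mouse 3 C9 (365 TPM) stood above C8g (318 TPM). C6 was lowest in all 12 mice. C8g averaged 349.5 ± 46.9 TPM (SD, n = 3) in RF.Ctrl and C9 293 ± 13.2 TPM, and in HF.Ctrl they averaged 319 ± 18.8 and 325 ± 35.8 TPM. Within a mouse, the log2 ratio of C9 to C8g was -0.45 to -0.05 in RF.Ctrl, below 0 in every mouse. In HF.Ctrl it was -0.12 to 0.20, on both sides of 0. C8b, C8a and Hc followed at 225 ± 6.67, 210.1 ± 38.7 and 182 ± 11.2 TPM in RF.Ctrl, where neighbours in the order overlapped, and C6 stood at 116 ± 9.64 TPM, below every other gene in every RF.Ctrl mouse.

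Under SAAR the order changed at C9 and at Hc. C9 averaged 172 ± 28.2 TPM in RF.SAAR and 134 ± 8.81 TPM in HF.SAAR, and was between the third and the fifth of the 6 in every SAAR mouse. Hc, which was the fifth in 5 of the 6 Ctrl mice, was the second in 4 of the 6 SAAR mice and the fourth in the other 2. C8g stayed highest, at 291 ± 13.5 TPM in RF.SAAR and 318 ± 5.68 TPM in HF.SAAR, and C6 lowest, at 59.2 ± 12.3 and 36.8 ± 3.71 TPM. In TPM the SAAR mice of C6, C8b and C9 lay below the Ctrl mice at both fat levels, and those of Hc, C8a and C8g overlapped with them at both. The share of all genes without overlap in TPM was not counted, and nothing is read from this split. TPM carry no TMM scaling between mice. In counts scaled by library size alone, the median log2 fold change of all genes was 0.16 in RF and 0.17 in HF. An overlap in TPM therefore does not show an unchanged level. Hc averaged 179 ± 32.5 TPM in RF.SAAR against 182 ± 11.2 in RF.Ctrl, and 159 ± 23.8 in HF.SAAR against 171 ± 23.3 in HF.Ctrl. C8a was at 154 to 223 TPM in RF.SAAR and 170.2 to 248 in RF.Ctrl, and at 101 to 176 in HF.SAAR and 160 to 234 in HF.Ctrl. C8g in HF.SAAR (313 to 324) lay within the range of HF.Ctrl (301 to 339), unlike its CPM mean. The highest of the 6 levels was 2.61 to 3.60 times the lowest in Ctrl mice, 3.95 to 5.93 times in RF.SAAR and 7.99 to 9.98 times in HF.SAAR.

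**Figure D3:**
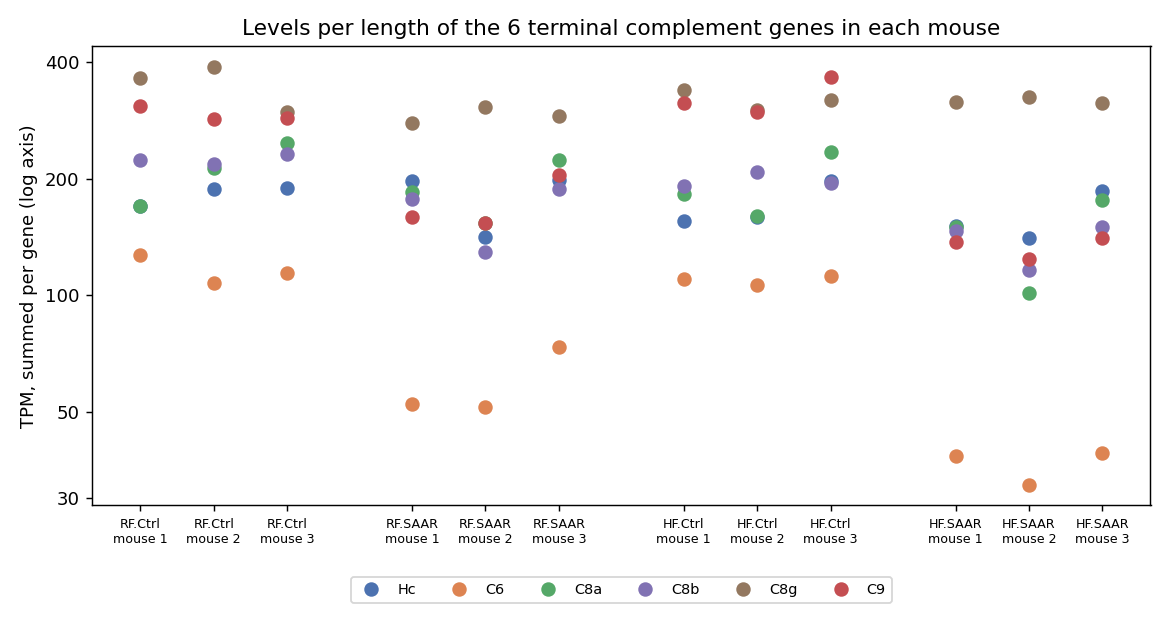
TPM summed per gene (vertical log axis) of the 6 genes, 1 column of points for each of the 12 mice. C9 lies near C8g at the top of the Ctrl columns and among Hc, C8a and C8b in the SAAR columns, and C6 drops from 107 to 127 TPM in Ctrl mice to 32.5 to 39.2 TPM in HF.SAAR mice.

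Ratios of TPM within a mouse do not depend on scaling between mice. The log2 ratio of C9 to C8g was -0.45 to -0.05 in RF.Ctrl and -0.12 to 0.20 in HF.Ctrl, against -0.995 to -0.50 in RF.SAAR and -1.39 to -1.16 in HF.SAAR. These SAAR ranges lay below the Ctrl range of the same fat level in every mouse. The log2 ratio of C6 to C8a was -1.12 to -0.42 in RF.Ctrl and -1.06 to -0.59 in HF.Ctrl, against -1.81 to -1.58 and -2.16 to -1.64 under SAAR, again without overlap. Within each group the log2 ratio of C9 to C6 varied least of the ratios computed. It ran from 1.28 to 1.40 in RF.Ctrl, 1.48 to 1.60 in RF.SAAR, 1.48 to 1.70 in HF.Ctrl and 1.83 to 1.93 in HF.SAAR. In TPM it was so higher under SAAR at both fat levels. The RF log2 fold changes from counts were close, at -1.09 for C6 and -1.03 for C9, and with length offsets they were -1.25 and -1.04. TPM depend on how kallisto divided reads among the C6 transcripts described below, and the part of this in the ratio was not tested. The 2 C8 chains C8b and C8a kept a log2 ratio between -0.26 and 0.39 in all 12 mice, and their SAAR and Ctrl values overlapped.

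Most of each gene's counts came from 1 transcript. It held 97.5% of the counts of Hc (ENSMUST00000028233), 99.9% of C8b (ENSMUST00000031663) and 99.2% of C9 (ENSMUST00000022749) over all mice. C8g had 89.1% in ENSMUST00000040042 and 6.12% in the noncoding ENSMUST00000149062. C8a had 87.3% in ENSMUST00000064873, and 6.40 and 6.30% in ENSMUST00000106808 and ENSMUST00000048947. C6 had 85.5% in ENSMUST00000162585 and 9.58% in the shorter coding ENSMUST00000022788. The share of this second C6 transcript was 1.92 to 12.1% in RF.Ctrl and 13.1 to 19.7% in RF.SAAR, without overlap, and 2.79 to 14.3% in HF.Ctrl and 10.2 to 16.3% in HF.SAAR, which overlapped. Another coding transcript, ENSMUST00000161997, held 2.97% over all mice, with 3.12 to 5.51% in RF.Ctrl against 0 to 0.280% in RF.SAAR, and 1.504 to 7.09% in HF.Ctrl against 6.61e-06% or less in HF.SAAR, without overlap at either fat level. kallisto divides reads that fit several transcripts, so these shares are estimates and were not tested.

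The gene whose pattern over the 12 mice was closest to that of C9 was C6, and the reverse also held, out of 14669 other genes. The measure was the root mean square difference of log2 CPM centred on each gene's own mean, 0.145 for this pair. It describes these mice, which share their diets, and C6 and C9 were proposed together from them. Outside the 6, the nearest to C9 were Alas2 (0.190), an erythroid heme synthesis enzyme, and Mup3 (0.199), a major urinary protein, and the nearest to C6 were Mup3 (0.195) and Alas2 (0.226). Mup3 has many close paralogs that kallisto may not separate, and its value is uncertain. Log2 fold changes were -0.94 (SE 0.13) and -1.36 (SE 0.13) for Alas2 in RF and HF, and -0.94 (SE 0.17) and -1.47 (SE 0.17) for Mup3.

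The other 4 genes each had other neighbours. Hc was nearest to Prnp (0.0827), the prion protein gene, and Acsm5 (0.0890), an acyl-CoA synthetase. C8a was nearest to Crybg1 (0.130) and the cytochrome P450 gene Cyp2c23 (0.144), and C8b to the pseudogene Adh6-ps1 (0.134) and Cyp2c23 (0.138). C8g was nearest to Mgst1 (0.0826), a glutathione transferase, and Bdh2 (0.0865), a dehydrogenase. Among the 6, Hc was number 5 of 14669 in closeness to C8a, and in reverse C8a was number 159 to Hc (0.155). C8a was number 20 to C8b, and C8b number 51 to C8a (0.211). C8b was number 3567 and C8a number 6054 in closeness to C8g, the gene of the γ chain. In reverse C8g was number 294 to C8b (0.307) and number 2897 to C8a (0.356). A place depends on the gene it is counted from, and the differences in brackets do not.

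C6 and C9 are neither adjacent nor overlapping. Between them lie 8 protein-coding genes, 7 of which were tested. In either SAAR comparison edgeR called 0 of the 7, where 1.49% (RF) and 1.97% (HF) of all genes were called in either direction. A count of 0 of 7 genes is close to those shares, and nothing is read from it. The largest of their log2 fold changes were 0.36 in RF (Ptger4, a prostaglandin receptor gene, SE 0.68, adjusted p = 0.904) and 0.52 in HF (Rpl37, a ribosomal protein gene, SE 0.21, adjusted p = 0.32). One of the 8 is C7, the component between C6 and C8 in the cascade and the only terminal gene not among the 6. C7 was at 1.27 to 3.80 CPM in all 12 mice, far under the 83.9 CPM that was the lowest value of C6. C7 had -0.16 on the log2 scale (SE 0.38, adjusted p = 0.931) in RF and 0.50 (SE 0.38, adjusted p = 0.674) in HF, and its mice overlapped in both.

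The rest of the complement system was taken from a list of 46 other genes, of which 42 were tested. In RF.SAAR vs. RF.Ctrl, edgeR called 2 lower and 0 higher, and in HF.SAAR vs. HF.Ctrl 1 lower and 0 higher, where 0.886 and 0.961% of all genes were called lower. Their median log2 fold change was -0.15 in RF and -0.06 in HF. The called genes were Clu at both fat levels and C4bp at regular fat. These calls were not stable to the mice in the fit. Leaving out any 1 mouse of the compared groups left 0 called at either fat level. Calls over all genes fell in these fits too. Genes called lower went from 130 to between 55 and 97 in RF, and from 141 to between 48 and 128 in HF.

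Clu, clusterin, averaged 1231 ± 28.8 CPM (SD, n = 3) in RF.Ctrl and 946 ± 47.4 in RF.SAAR, and 1285 ± 68.6 in HF.Ctrl and 1010 ± 32.6 in HF.SAAR. It was lower, with -0.38 on the log2 scale (SE 0.08, adjusted p = 0.029) in RF and -0.35 (SE 0.08, adjusted p = 0.0373) in HF. Vtn, vitronectin, the other plasma inhibitor of the terminal complex, had log2 fold changes of -0.15 (SE 0.08, adjusted p = 0.427) and -0.15 (SE 0.08, adjusted p = 0.468) and was not called. C4bp, which regulates the classical and lectin arms, was lower, with -0.40 (SE 0.08, adjusted p = 0.029) in RF and had -0.21 (SE 0.08, adjusted p = 0.287) in HF. The 7 tested soluble regulators of earlier steps described here were below 0 in both comparisons, with medians of -0.32 and -0.21.

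C3, the component on which the arms converge, averaged 3682 ± 784 CPM under RF.Ctrl and 3502 ± 365 under RF.SAAR, and 3501 ± 339 in HF.Ctrl and 3820 ± 478 in HF.SAAR. Its log2 fold changes of -0.07 (SE 0.14, adjusted p = 0.912) and 0.13 (SE 0.14, adjusted p = 0.811) were within the spread of the mice. Cd59a, a membrane inhibitor of C9, was at 36.3 to 65.0 CPM and had -0.33 (SE 0.14, adjusted p = 0.331) and -0.23 (SE 0.14, adjusted p = 0.566). Cd59b, a second CD59 gene of the mouse, was at only 0.976 to 2.66 CPM. It had -0.82 (SE 0.29, adjusted p = 0.211) in RF and -0.28 (SE 0.29, adjusted p = 0.777) in HF. Of the classical genes 8 were tested, of the lectin genes 7, of the alternative genes 4, of the membrane regulators 5 and of the receptors 8, and edgeR called 0 in any of these roles. Their medians lay between -0.22 (lectin) and 0.10 (receptors) in RF and between -0.20 (lectin) and 0.23 (receptors) in HF. C4b, which has a near-identical copy in the mouse, had -0.20 and -0.13, and the division of its reads is uncertain.

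**Figure D4:**
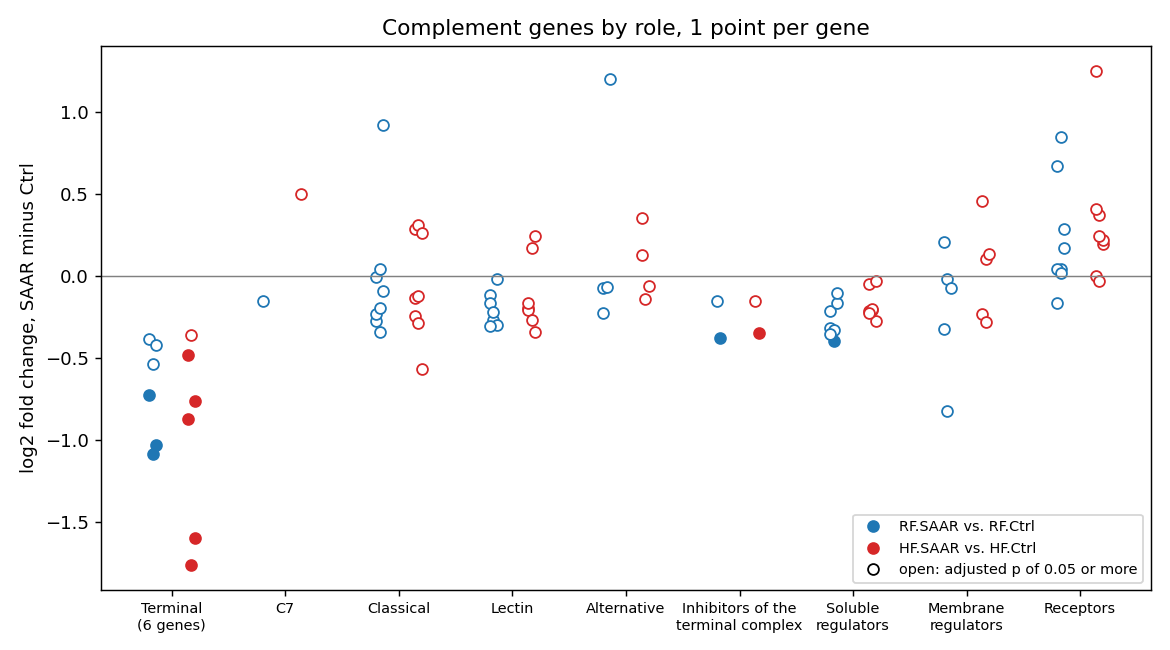
Log2 fold change of SAAR minus Ctrl (vertical axis) of each tested complement gene by its role, blue for regular fat and red for high fat, filled where edgeR's adjusted p was under 0.05. The 6 terminal genes include the lowest points, at -1.76 and -1.60, and filled points outside them are Clu (-0.38 and -0.35) and C4bp (-0.40).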

How the data were processed

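Liver RNA of 12 mice was analysed, 3 per diet, grouped by the GEO labels, whose names for the fat and restriction fields are interchanged. The authors trimmed reads with cutadapt and assigned them to Ensembl mouse transcripts by kallisto. The deposited expected counts (estimated read pairs per transcript) and the TPM deposited by the authors carry no normalization between mice and no filter. Of 118489 listed transcripts, 116816 were matched to the GENCODE vM21 annotation of GRCm38 and 1673 were not, with 1.08% of the counts.

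Counts were summed per gene, rounded and fitted in R 4.3.3 with edgeR 4.0.16 (quasi-likelihood F-test with robust dispersions, TMM scaling, genes kept by filterByExpr on the 4 groups, 1 coefficient for each, all 12 mice), with Benjamini-Hochberg adjustment over 14670 genes and calls at an adjusted p under 0.05. DESeq2 1.42.0 was an alternative, as were other scalings, filters, length offsets, the most abundant transcript, the compared groups alone and leaving out each mouse. Leaving out the 3 mice highest in pancreatic acinar genes was added after seeing the data. Log2 CPM for the measure of likeness used a prior count of 2. Estimated counts are not independent molecules. The p-values set differences between groups against the spread of the mice within groups, estimated over the groups together. Named are all 6 genes, their transcripts with at least 5% of the counts, the 2 nearest other genes of each, C7, Vtn, Clu, C3 and Cd59a, and the other complement genes called. Rpl37, Ptger4, Cd59b and the C6 transcript ENSMUST00000161997 were named after their values were seen. The 6 genes and the lists were chosen with earlier results of these data known. Of the 46 other complement genes, C4a was not analysed here, and C1rb, Fcnb and Cd55b did not pass the filter. 1 further gene of the list is not reported here.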

Additional observations from a re-analysis of the deposited data

How the results depend on the processing

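C6 and C9 kept their direction and their side of the threshold in 16 of 16 alternatives in both comparisons of SAAR with Ctrl, with log2 fold changes of -1.25 to -0.92 and -1.92 to -1.59 for C6, and -1.04 to -0.87 and -1.62 to -1.43 for C9, beside -1.24 to -0.98, -1.82 to -1.67, -1.15 to -0.94 and -1.64 to -1.57 without single mice. Of the 6 genes, DESeq2 called 5 in RF against 3, and 1 in HF.SAAR vs. RF.SAAR against 0. Library size alone, which moved the median of all genes by 0.16 in RF and 0.17 in HF and the split of calls in RF from 88 higher and 130 lower to 359 and 66, and in HF from 148 and 141 to 639 and 80, called 3 of the 6 in HF against 5, and leaving out the 3 mice highest in acinar genes called 2, with 1 HF.SAAR mouse left, assumed to vary like the others. Leaving out 1 mouse gave 2 to 3 calls in RF (2 without RF.Ctrl mouse 1 or 3) and 3 to 5 in HF (3 without HF.Ctrl mouse 1 or 3 or HF.SAAR mouse 1). The gene lost in RF was C8b, with an edgeR adjusted p of 0.0553 without RF.Ctrl mouse 1 and 0.053 without RF.Ctrl mouse 3. Over all genes, these fits called 55 to 97 lower in RF, against 130 with all mice. In HF they called 48 to 128 lower, against 141. Hc in HF was lost in 10 of 16 alternatives and C8a in 5, with log2 fold changes that stayed below 0, at -0.59 to -0.32 for Hc and -0.89 to -0.59 for C8a. Of the other complement genes, 2 were called in RF, against 1 with length offsets, 5 with DESeq2, and 0 with library size alone, only the groups compared, without the acinar-high mice or without any single mouse of the compared groups. In HF 1 was called, against 3 with DESeq2, and 0 with library size alone, without the count filter, with only the groups compared, without the acinar-high mice or without any single mouse of the compared groups.

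In HF.Ctrl vs. RF.Ctrl, near 0 in every fit, signs turned for Hc (0.0487 with length offsets, 0.0322 without the acinar-high mice), C6 (-0.0047 without those mice), C8a (-0.014 with library size alone) and C8g (-0.0404 with library size alone, -0.0011 for the most abundant transcript, -0.0263 without the acinar-high mice). Without single mice the ranges were -0.1024 to 0.0651 (Hc), -0.0133 to 0.1807 (C6), -0.0281 to 0.1526 (C8a), -0.1699 to 0.0708 (C8b) and -0.0891 to 0.1237 (C8g). The interaction of C8b became 0.0069 without the acinar-high mice. Causes were not tested. No paired analysis was possible because the labels give no replicate numbers. The numbers used here only name the mice.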
